A study of Mus musculus with 2 samples.

Results

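The mouse mitochondrial genome carries 37 genes, which were taken here as every gene of the deposited tables whose symbol begins with mt- in lower case. They are 37 of 55536 mouse genes and comprise 13 protein-coding genes, 2 ribosomal RNA (rRNA) genes and 22 transfer RNA (tRNA) genes. Nuclear copies of these genes were not members and are described only for the sequence and counts they share with a member. Hearts of 4-day-old male B6CASTF1/J mice, first-generation offspring of C57BL/6J and CAST/EiJ, were measured in 2 libraries (replicates 1 and 2). Both libraries belong to 1 untreated group. There is no second condition to compare with, and every value below is a description without a test. The 2 hearts are numbered as different animals and have separate sample records but share a donor record, and if both came from 1 animal the SD would be technical. The libraries were made from 300 ng of total RNA each, kept strand information, were depleted of rRNA and held ERCC spike-ins, and the labels do not give the strain of the mothers, from whom mitochondrial DNA is inherited.

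Mitochondrial DNA is a small circle that is read from both strands as long transcripts. The tRNAs lie between most of the other genes, and cutting at the tRNAs frees the mRNAs and rRNAs from the long transcript. The rRNAs build the mitochondrial ribosome, the tRNAs serve its translation, and the mRNAs encode core subunits of complexes I, III, IV and V of oxidative phosphorylation, the main energy source of the adult heart. All other proteins of the organelle come from nuclear genes. The strand that serves as template for most genes is called the heavy strand, and the other the light strand.

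The annotation (GENCODE M21 on mm10) places the members from base 1 to base 15422 of the mitochondrial chromosome. Of 36 neighbouring pairs, 9 overlap, 12 abut with 0 bases between them, 14 are separated by 1 to 5 bases and 1 by more. The single larger gap is 32 bases, between mt-Tn and mt-Tc. Of the 15 rRNA and coding genes, 14 have a tRNA gene on at least 1 side and 8 have one on both. There are 28 members read from the heavy strand (12 coding, 2 rRNA and 14 tRNA genes) and 9 from the light strand, namely mt-Nd6 and 8 tRNA genes.

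The tRNA sequences are shown because their length sets whether the deposited tables could hold a count for them. These are the tRNAs that flank or separate the rRNA genes, followed by the shortest of the 22, from the GENCODE M21 transcripts, 5′ to 3′, with the anticodon in capitals.
mt-Tf (phenylalanine, chrM:1-68, plus strand): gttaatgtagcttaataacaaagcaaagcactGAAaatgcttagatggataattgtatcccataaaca
mt-Tv (valine, chrM:1025-1093, plus strand): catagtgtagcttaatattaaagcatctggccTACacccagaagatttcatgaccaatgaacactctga
mt-Tl1 (leucine, chrM:2676-2750, plus strand): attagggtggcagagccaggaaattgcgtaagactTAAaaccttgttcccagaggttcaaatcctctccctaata
mt-Ts2 (serine, chrM:11613-11671, plus strand): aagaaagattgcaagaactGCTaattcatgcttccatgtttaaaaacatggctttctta
The 22 tRNA genes are 59 (mt-Ts2) to 75 (mt-Tl1) bases long, with a median of 68.5. Their GC content runs from 17.1% to 44.9%. In each of the 22, the known anticodon was matched once in the inner part of the sequence. The search itself required a T before the anticodon or, failing that, a C. It used T in 20 and C in mt-Tv and mt-Tm.

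All 13 coding genes and both rRNA genes were expressed, taken as a TPM (a level per transcript length, scaled to the library) of at least 1 in both hearts. The 22 tRNA genes were listed at 0 in both hearts. Thus 15 of 37 members were expressed, against 23.8% of all mouse genes. By TPM as deposited, 8 of the 20 genes with the highest mean were members. Nuclear copies, described below, stand there as separate genes, and Gm28661, a copy of mt-Co2, had a mean TPM of 17406. The median TPM of the 13243 expressed genes was 11.4, and that of mt-Co2, the lowest expressed member, was 343 as deposited.

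No tRNA gene had a count in either of the 2 quantifications that the authors deposited. A count of 0 allows up to 3 counts, which is a CPM of 0.0952 of mouse-gene counts in replicate 1 and 0.0839 in replicate 2, for counting error only. The zero was shared by other genes of that size. Of 2398 mouse genes of at most 99 bases, 0 had a count in the first quantification, where the effective length of such genes is listed as 0. In the second, 0 of 6825 genes without a transcript over 200 bases had a count. The tables therefore say nothing of tRNA abundance in these hearts. Among genes of 100 to 150 bases the first quantification gave counts to 8.63% and the second to 0%.

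**Figure D1:**
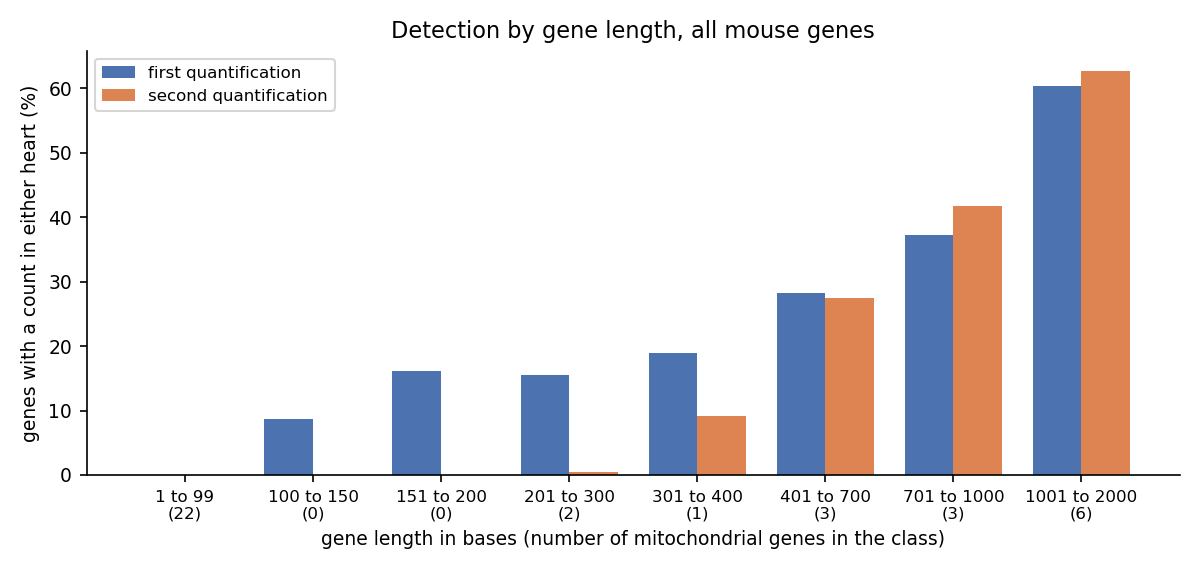
Percentage of mouse genes with a count in either heart (y axis) by class of gene length in bases (x axis, with the number of mitochondrial genes in each class in brackets), for the first (blue) and second (orange) quantification. The class of 1 to 99 bases, which holds the 22 tRNA genes, is at 0% in both, and genes over 200 and up to 300 bases long, among them mt-Atp8 and mt-Nd4l, reach 15.5% by the first and 0.477% by the second.

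The 37 genes took a large part of each library. They held 16.1% of mouse-gene expected counts in replicate 1 (5066438 of 31512596; exact 95% binomial interval 16.065% to 16.09%) and 17.5% in replicate 2 (6262857 of 35744013; 17.509% to 17.534%). The share was 16.8% ± 1.02 (SD, n = 2), with the higher value in replicate 2. The intervals cover counting error only, so their width at these depths says nothing of the spread between hearts. In bulk tissue, fewer cells rich in mitochondria and less mitochondrial RNA per cell cannot be told apart. The 2 rRNA genes carried 10.4% and 11.4% of mouse-gene counts, and the 13 coding genes 5.66% and 6.11%. By TPM, all members held 18.4% in replicate 1 and 19.0% in replicate 2.

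The rRNA genes were the highest members. mt-Rnr2 (chrM:1094-2675, plus strand), the 16S RNA of the large ribosomal subunit, had a TPM of 69298 in replicate 1 and 72982 in replicate 2 (71140 ± 2605, n = 2). mt-Rnr1 (chrM:70-1024, plus strand), the 12S RNA of the small subunit, had 37775 and 38875 (38325 ± 778). mt-Rnr2 stood above mt-Rnr1 in both hearts, and the pair do not overlap. The log2 ratio of mt-Rnr2 over mt-Rnr1 was 0.89 ± 0.02 (1.86-fold), and 1.09 by the second quantification. Together they made up 64.9% ± 0.229 of the members' counts. The libraries were rRNA-reduced, and the sources used here do not say whether that step acted on mitochondrial rRNA, so these are levels after that step.

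For several mRNAs, counts on shared sequence were divided between the mitochondrial gene and a nuclear copy. A search of all other annotated transcripts found 16 copies of 11 members, at 90% identity or more over at least 50% of the copy's length. Of these, 5 had no mismatch, 6 had a mean of at least 100 counts and 8 had 0 counts in both hearts. There are 7 copies that lie together on chromosome 1 (mm10 chr1:24611535-24616197, minus strand, 4663 bases), annotated as unprocessed pseudogenes. In the order in which they are read they match the 3′ part of mt-Co1, then mt-Co2, mt-Atp6, mt-Co3, mt-Nd3, mt-Nd4l and the 5′ part of mt-Nd4, which is their order on the mitochondrial genome with the tRNAs and mt-Atp8 set aside. All 7 copies are named here, and those with 0 counts (Gm28438, Gm10222 and Gm28439) fall outside the rule for named genes and were chosen after their values were seen.

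The ends of the pairs that share most reads are printed because they hold the bases by which the annotated transcripts differ. Each line gives the 3′ end of a transcript, and capitals mark bases that are in the mitochondrial gene model and absent from the copy's model.
mt-Co2 (chrM:7013-7696, plus strand): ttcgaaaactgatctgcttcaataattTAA
Gm28661 (chr1:24614885-24615565, minus strand): ttcgaaaactgatctgcttcaataatt
mt-Atp6 (chrM:7927-8607, plus strand): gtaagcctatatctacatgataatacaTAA
Gm10925 (chr1:24613974-24614651, minus strand): gtaagcctatatctacatgataataca
mt-Co3 (chrM:8607-9390, plus strand): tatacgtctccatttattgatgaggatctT
Gm28437 (chr1:24613189-24613971, minus strand): tatacgtctccatttattgatgaggatct
Gm28661 matched mt-Co2 over all of its 681 bases without a mismatch, Gm10925 matched mt-Atp6 over 678 and Gm28437 matched mt-Co3 over 783. Their models stop before the last letters of the coding gene. A read that lies wholly within the matched bases has the same letters in the gene and in its copy. Its origin cannot be told from its sequence, and transcription of the copies was not tested.

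A pair of copies of the same block differ from the member at a single base. Positions count from 1 at the member's 5′ end, with the member's base first. Gm29216 (chr1:24615706-24616197, minus strand) aligned with mt-Co1 (chrM:5328-6872, plus strand) over 483 of its 492 bases with the change A1066T. Gm28438 (chr1:24612775-24613119, minus strand) aligned with mt-Nd3 (chrM:9459-9806, plus strand) over 345 bases with the change T3C, in the start codon. The base that differs is in capitals.
mt-Co1: ggaAttgttttatccaac
Gm29216: ggaTttgttttatccaac
mt-Nd3: atTaacctgtacactgt
Gm28438: atCaacctgtacactgt

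mt-Co2 encodes a catalytic subunit of cytochrome c oxidase (complex IV) and was the member most affected by the division of reads. As deposited, its TPM was 380 in replicate 1 and 307 in replicate 2. Its copy Gm28661 held 241228 and 297631 expected counts against 5396 and 5172 for mt-Co2. Thus 2.19% of the counts of the gene with its copies went to mt-Co2 in replicate 1 and 1.71% in replicate 2. The second quantification gave mt-Co2 10.2% and 9.55%. The posterior mean TPM in the same gene table was 2590 and 2409, higher than the main TPM column in both hearts.

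For mt-Atp6, a subunit of the proton channel of ATP synthase (complex V), the first quantification gave the gene 50.5% and 44.7% of the counts it shares with its copies. Gm10925 took 117372 and 149862 counts. The second gave nearly all of them to mt-Atp6, leaving Gm10925 with 49.4 and 50.5 estimated counts. The 2 quantifications thus placed the same sequence differently in both hearts.

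For mt-Co3, a further complex IV subunit, 39.5% and 49.1% of shared counts lay on the gene by the first quantification and 38.8% and 38.1% by the second. Gm28437 held 143686 and 140663 counts by the first. The hearts lay further apart by the first quantification than by the second.

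mt-Co1, the subunit with the main catalytic site of complex IV, kept 90.9% and 90.7% of the counts it shares with its copies, and 99.9% in both hearts by the second quantification. Gm29216 held 72010 and 91269 counts by the first, and 27.8 and 0 by the second. Copies of mt-Co1 and mt-Co2 on chromosome 2 took few. Gm13340 (chr2:22588103-22589647, 97.6% identity to mt-Co1) had 160 and 177 counts, and Gm13341 (chr2:22587291-22587962, 95.9% to mt-Co2) had 104 and 126. Gm28439 (chr1:24611535-24612410, minus strand), which matches the first 876 bases of mt-Nd4 without a mismatch and lacks the last 502, had 0 counts in the first quantification but 6254 and 10608 in the second. Gm28438 and Gm10222 (chr1:24612407-24612700, minus strand, 294 bases that match mt-Nd4l without a mismatch) had 0 in both.

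**Figure D2:**
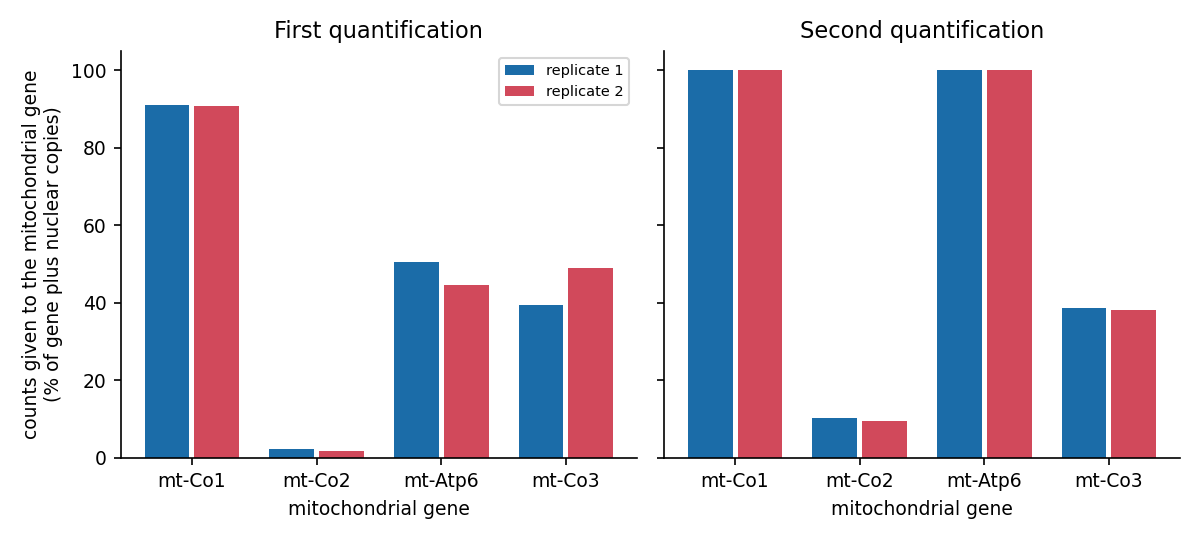
Counts assigned to the mitochondrial gene as a percentage of those on the gene and its nuclear copies together (y axis), for 4 genes in replicate 1 (blue) and replicate 2 (red), by the first (left) and second (right) quantification. mt-Co2 keeps at most 10.2% in any of them, whereas mt-Atp6 moves from 50.5% and 44.7% to nearly all.

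To set the levels side by side, the counts of each member and its copies were added and expressed per effective length of the member on the TPM scale of its library. This assigns every shared read to the mitochondrial gene, so it is an upper value. On this scale the members held 17.9% and 19.4% of mouse-gene counts.

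Complex IV genes led the coding genes. With copies added, mt-Co1 had a TPM of 22682 in replicate 1 and 23552 in replicate 2 (23117 ± 616), as deposited 20627 and 21357. mt-Co2 followed at 17362 and 17972 (17667 ± 431), which is 1.31-fold below mt-Co1. The log2 ratio of mt-Co2 over mt-Co1 was -5.94 ± 0.25 as deposited and -0.39 ± 0.003 with copies added. mt-Co3 came after mt-Atp6 at 14273 and 13996 (14135 ± 196), after 5639 and 6869 as deposited. The 3 genes therefore lay within 1.64-fold of each other once copies were added, whereas as deposited mt-Co2 had 0.0163 times the TPM of mt-Co1.

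The ATP synthase genes mt-Atp8 and mt-Atp6 share one mRNA, and their reading frames overlap. The last bases of mt-Atp8 (chrM:7766-7969, plus strand) show this, with the 43 bases that also belong to mt-Atp6 in capitals.
mt-Atp8: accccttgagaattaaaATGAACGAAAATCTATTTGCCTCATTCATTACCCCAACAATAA
mt-Atp6 had 16775 and 16154 with copies added (16464 ± 439), as deposited 8473 and 7217. mt-Atp8 had 2668 and 2723 (2695 ± 38.7), and no copy of it was found. The log2 ratio of mt-Atp6 over mt-Atp8 was 1.54 ± 0.18 as deposited and 2.61 ± 0.06 (6.11-fold) with copies added. The second quantification listed mt-Atp8 at 0 in both hearts.

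mt-Nd4l and mt-Nd4, complex I subunits, likewise share one mRNA. The end of mt-Nd4l (chrM:9877-10173, plus strand) is shown with the 7 bases that begin mt-Nd4 (chrM:10167-11544, plus strand) in capitals.
mt-Nd4l: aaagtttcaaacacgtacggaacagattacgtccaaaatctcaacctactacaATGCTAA
mt-Nd4l had 4779 and 4843 (4811 ± 44.9), and mt-Nd4 had 4774 and 4798 (4786 ± 17.2). Their log2 ratio, mt-Nd4 over mt-Nd4l, was -0.008 ± 0.008, so these levels were the closest of the overlapping pairs. The second quantification gave mt-Nd4 6272 and 6410 but mt-Nd4l only 36.9 and 1.10, from 53 and 2 estimated counts.

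The other complex I genes read from the heavy strand spread from 2744 to 8125. mt-Nd1 (chrM:2751-3707) had 7718 and 8533 (8125 ± 577), mt-Nd5 (chrM:11742-13565) 4603 and 4859 (4731 ± 181), mt-Nd3 2902 and 3004 (2953 ± 71.9), and mt-Nd2 (chrM:3914-4951) 2737 and 2751 (2744 ± 10.2). mt-Nd1, mt-Nd2 and mt-Nd3 do not overlap with each other. mt-Cytb (chrM:14145-15288), the only complex III subunit of the mitochondrial genome, had 8716 and 8665 (8690 ± 35.7).

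With copies added, the coding genes ran from high to low as mt-Co1, mt-Co2, mt-Atp6, mt-Co3, mt-Cytb, mt-Nd1, mt-Nd4l, mt-Nd4, mt-Nd5, mt-Nd3, mt-Nd2, mt-Atp8 and mt-Nd6. Only the neighbours mt-Nd4l, mt-Nd4 and mt-Nd5 overlapped between the hearts, and all other neighbours lay apart. This order is that of the first quantification. By the second, mt-Nd3 (1798 and 13.9) lay below mt-Nd2 (3976 and 4199). There mt-Nd4l (36.9 and 1.10) and mt-Atp8 (0 in both) lay below mt-Nd6 (973 and 1384). The levels did not follow the order of the genes on the genome, since mt-Nd2 lies before mt-Co1 and was 8.42-fold below it.

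**Figure D3:**
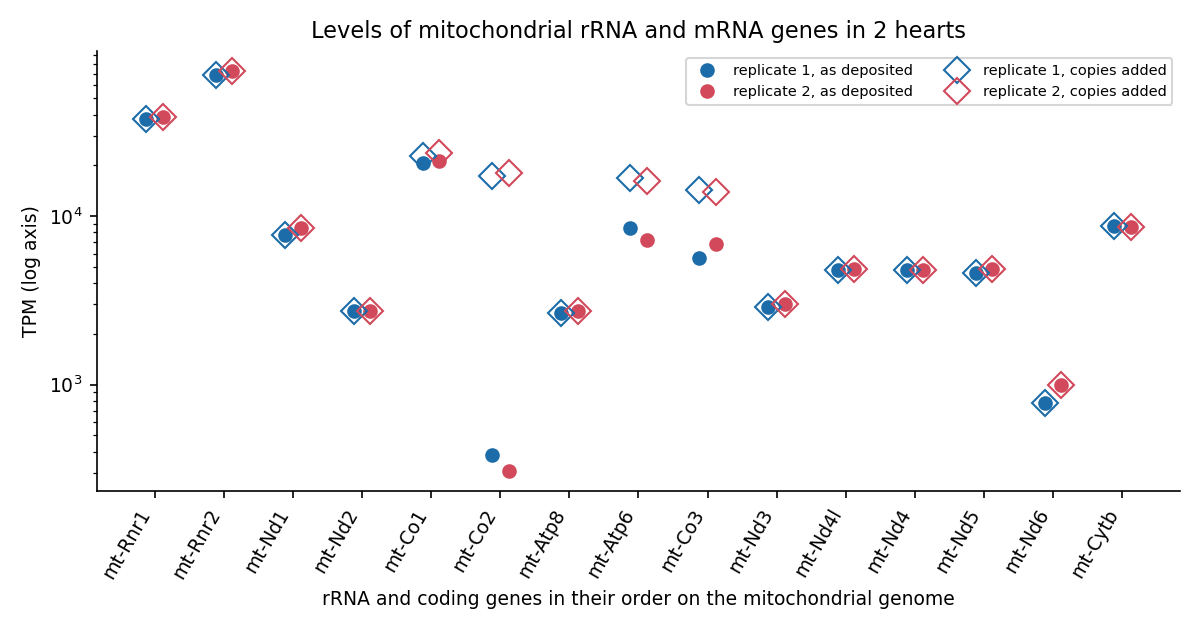
TPM on a log axis (y axis) of the 15 rRNA and coding genes in genome order (x axis), in replicate 1 (blue) and replicate 2 (red), with filled circles as deposited and open diamonds after counts of nuclear copies were added. Circles and diamonds part visibly at mt-Co2, mt-Atp6 and mt-Co3, slightly at mt-Co1, and coincide elsewhere.

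The single mRNA of the light strand was the lowest of the coding genes with copies added. mt-Nd6 (chrM:13552-14070, minus strand), a complex I subunit, had a TPM of 773 in replicate 1 and 989 in replicate 2 (881 ± 153). It lay 26.2-fold below mt-Co1 with copies added. mt-Nd5, whose gene overlaps it by 14 bases on the opposite strand, stood 5.41-fold above it, with a log2 ratio of 2.44 ± 0.20. With stranded libraries the strands can be told apart, but no source used here gives the strand setting of the counting. The 9 light-strand genes held 0.156% and 0.191% of the members' counts (7884 and 11965), all of them on mt-Nd6.

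Base composition also set mt-Nd6 apart. Its mRNA sequence was 28.1% G and 5.97% C, whereas the 12 heavy-strand coding genes held 5.88% to 16.1% G and 22.1% to 30% C. Among the coding genes, 9 begin with ATG and 1 each with ATA, ATC, ATT and GTG. Their ends are TAA in 8, TAG in 2 and a bare T in 3, where the stop codon is completed by the poly(A) tail. The first and last 15 bases of 4 genes show these forms, with the start codon or the encoded part of the stop codon in capitals.
mt-Nd1 start: GTGttctttattaat
mt-Nd1 end: ccaccatacataTAG
mt-Nd5 start: ATCaatattttcaca
mt-Nd5 end: attaatctcgagTAA
mt-Nd6 start: ATGaataattatatt
mt-Nd6 end: attactcgagatTAA
mt-Cytb start: ATGacaaacatacga
mt-Cytb end: taaaattatatccaT
The 3 genes that end in a bare T are mt-Co3, mt-Nd4 and mt-Cytb. Their levels with copies added ran from 4786 to 14135.

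The 2 hearts differed little for these genes. The log2 ratio of replicate 2 over replicate 1 was computed over 16271 genes after TMM scaling, which aligns libraries on the bulk of genes. None of the 15 members differed by more than 2-fold. The share over all genes was 3.06%, so this count does not set the members apart. As deposited, 13 of 15 members were higher in replicate 2, against 49.6% of all genes. With copies added it was 15 of 15. The 2 exceptions as deposited were mt-Co2 (-0.18) and mt-Atp6 (-0.10), which had ratios of 0.18 and 0.08 with copies added. By TPM with copies added, mt-Atp6 (16775 and 16154), mt-Co3 (14273 and 13996) and mt-Cytb (8716 and 8665) were lower in replicate 2. For these genes the direction depends on the scale. The reads of 1 long transcript can move together, so members are not independent of each other.

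The coding genes had a median log2 ratio of 0.16, against a median of -0.003 and quartiles of -0.22 and 0.17 over all genes. The largest ratio was that of mt-Nd6 at 0.49, followed by mt-Co3 at 0.41, mt-Nd1 at 0.27 and mt-Nd5 at 0.21. That of mt-Co3 fell to 0.10 with copies added. The span from lowest to highest coding gene was 0.66 as deposited and 0.41 with copies added. mt-Rnr2 and mt-Rnr1 had 0.20 and 0.17. By the second quantification, mt-Nd3 had a ratio of -6.68 (3240 and 31 estimated counts), where the first gave 0.18.

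**Figure D4:**
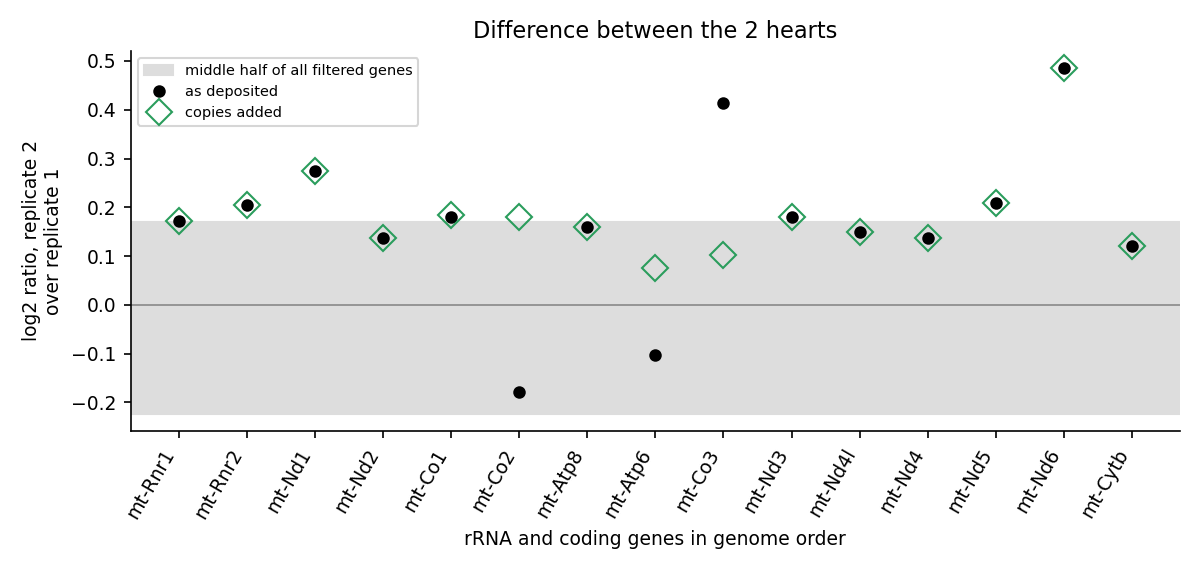
Log2 ratio of replicate 2 over replicate 1 (y axis) for the 15 rRNA and coding genes in genome order (x axis), as deposited (black circles) and with counts of nuclear copies added (green diamonds). The grey band spans the quartiles of all 16271 filtered genes, -0.22 to 0.17, and mt-Co2, mt-Atp6 and mt-Co3 move to ratios of 0.08 to 0.18 when copies are added.

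Of the markers of other tissues, the red-cell list differed most between the same libraries. All 3 red-cell markers were higher in replicate 2 by more than 2-fold, with Hbb-bs, the adult beta-globin, at a TPM of 471 and 1886. Their summed TPM was 939 and 3554, and their median log2 ratio was 1.95. Of the 6 brown-fat markers, which include Cox7a1 and Cpt1b of heart muscle, 4 were expressed, and Ucp1, the defining uncoupling protein of that mitochondria-rich tissue, had 0 counts in replicate 1 and 396 in replicate 2. The summed TPM of that list was 649 and 630, most of it on Cox7a1 (365 and 334) and Cpt1b (256 and 259). Cidea was at 26.58 and 27.05, and Elovl3 at 0 and 0.02. The 4 genes of the list that passed the filter all had a positive log2 ratio, against 49.6% of all genes. Their median was 0.12. The 6 heart-muscle markers were all expressed, with a summed TPM of 30895 and 28797 and a median log2 ratio of -0.04. Of the 5 skeletal-muscle markers 1 was expressed, namely Ckm at 1459 and 1292. Myh1 was at 0.02 and 0.06, Myh4 at 0.01 and 0.01, Actn3 at 0.35 and 0.16, and Myod1 at 0 in both. The part of these differences in the members' ratios was not tested.

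The 2 quantifications were compared for each gene. In both hearts 4 of 15 members differed by more than 2-fold in the same direction, against 12.5% of 15573 genes. mt-Co2 and mt-Atp6 were higher by the second, at 2794 and 2764 and at 19845 and 19916. mt-Atp8 and mt-Nd4l, both under 300 bases, were lower. The gene tables also give a TPM interval for each gene, at a level that is not stated. The posterior mean TPM of every detected member lay within it in both hearts (mt-Co2 in replicate 1: 2590, interval 1831 to 3299). The main TPM column mostly did not. In replicate 1 the main TPM lay above the interval in 12 of 15 members, within it in 1 (mt-Atp6) and below it in 2 (mt-Co2 and mt-Co3). In replicate 2 the main TPM lay above in 12, within in 2 (mt-Atp6 and mt-Co3) and below in 1 (mt-Co2).

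The median mitochondrial subunit gene had a higher TPM than the median nuclear subunit gene of the same complex. With copies added, the median mitochondrial gene of complex I (7 genes) had 17.6 and 20.3 times the TPM of the median of 7 nuclear subunits. In complex III, mt-Cytb stood at 20.9 and 23.5 times the median of 4 nuclear subunits, from 323 (Uqcrfs1) to 646 (Uqcrc1). In complex IV (3 against 7) the ratio was 22.8 and 25, with nuclear means from 350 (Cox7a1) to 1423 (Cox4i1). As deposited, the complex IV ratio was 7.4 and 9.55. With copies added the ranges were apart in these 3 complexes, but as deposited those of complex IV overlapped, since mt-Co2 at 343 lay below Cox7a1.

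In complex V (2 genes against 8) the ratio was 12 and 12.2 with copies added and 6.88 and 6.42 as deposited. It was the lowest of the 4 complexes on both scales. The mitochondrial median of complex V lies midway between mt-Atp6 (16464 with copies added) and mt-Atp8. The low ratio therefore leans on mt-Atp8, a gene of 204 bases that the second quantification listed at 0. Here the ranges overlapped, since Atp5b, the catalytic beta subunit of ATP synthase, had a TPM of 3059 and 2775 (mean 2917) and mt-Atp8 2695 ± 38.7. All 26 nuclear subunits were expressed, with a median TPM of 479. They were higher in replicate 2 in 11 of 26, against 49.6% of all genes, with a median log2 ratio of -0.02. Of the 26, 0 differed over 2-fold, against 3.06% of all genes.

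**Figure D5:**
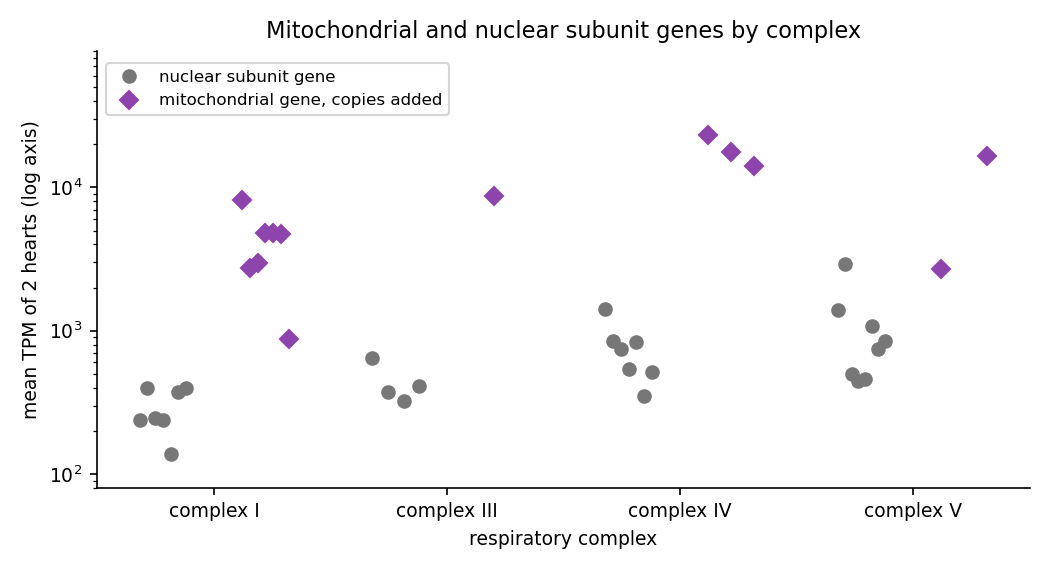
Mean TPM of 2 hearts on a log axis (y axis) for nuclear subunit genes (grey circles) and mitochondrial genes with copies added (purple diamonds), by respiratory complex (x axis). With copies added the groups are apart in complexes I, III and IV and overlap in complex V, where mt-Atp8 at 2695 lies below Atp5b at 2917.

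The nuclear genes that copy and read mitochondrial DNA were expressed at lower TPM than the members. Of 18 such genes 17 were expressed, with a median TPM of 5.97. Polg, the catalytic subunit of the mitochondrial DNA polymerase, had 30.6 and 23.5, Tfam, which packages the DNA and starts transcription, 28.1 and 24.9, Mterf3, of the termination factor family, 19.4 and 17.5, and Polrmt, the RNA polymerase, 19.0 and 16.6. Mterf1b was at 1.04 and 0.97. Of the 18, 3 were higher in replicate 2, against 49.6% of all genes, and the median log2 ratio of the 18 was -0.25.

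RNA processing, modification and decay genes came next. Of 39 listed, 38 were matched by symbol (Prorp was not) and all 38 were expressed, with a median TPM of 12.4. Fastk, of a family of mitochondrial RNA-binding proteins, had 99.4 and 86.4, Grsf1, a protein of the RNA granules, 83.5 and 77.9, and the partners Slirp and Lrpprc, which stabilise mitochondrial mRNAs, 81.7 and 65.8 and 81.5 and 62.5. Of the 38, 12 were higher in replicate 2, with a median log2 ratio of -0.09.

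The listed genes of tRNA charging, synthetases and subunits of an amidotransferase, were all expressed, 22 of 22, with a median TPM of 12.9. These genes do not pair off with the 22 tRNAs, which themselves could not be measured. Kars and Gars, which also serve the cytosol, led with 46.6 and 42.1 and with 38.7 and 39.3, followed by Iars2 at 32 and 30.8 and Fars2 at 31.4 and 28.8. Of the 22, 11 were higher in replicate 2 and the median log2 ratio was 0.02. The 12 translation factors were all expressed, with a median of 17.5, led by the elongation factors Tufm (106 and 99.97) and Gfm1 (95 and 85.3) and the insertase Oxa1l (61.1 and 48.0). Of these 12, 2 were higher in replicate 2, with a median log2 ratio of -0.12. In none of these 4 lists did a gene differ by more than 2-fold between the hearts, against 3.06% of all genes. Beside the counts of these 4 lists, 23.8% of all mouse genes were expressed and 49.6% of filtered genes were higher in replicate 2.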

How the data were processed

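Total RNA-seq of 2 hearts was analysed. Per the notes deposited beside the files, the build was mm10 and the annotation GENCODE M21, and the first tables came from an alignment to transcripts. The authors' gene tables hold expected counts, posterior mean counts and TPM under RSEM-style column names, and the TPM of all rows, spike-ins among them, make up the total. The interval bounds of TPM, treated as a signal of unstated level, are likewise deposited by the authors. The second quantification is a deposited transcript table of estimated counts and TPM with kallisto-style headers, which was summed per gene. The aligner, tool versions and counting settings are not given in the sources used here. Effective length in the first tables was the length less 99 bases.

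Mouse-gene expected counts totalled 31512596 in replicate 1 and 35744013 in replicate 2. Spike-ins added 0.588% and 0.545%, and 26248 numbered rows that name no gene held 2 and 4 counts. Both stayed out of library sizes. Intervals are exact binomial at 95%, and a count of 0 was read against a floor of 3 counts, covering counting error only. Nuclear copies were found with blastn 2.17.0 against the annotated transcripts (90% identity, 50% of the copy). Ratios between hearts used rounded expected counts, edgeR 4.0.16 (TMM, filterByExpr, prior count 2) under R 4.3.3, with DESeq2 1.42.0 size factors as an alternative, and were tested on simulated data with 200 changed genes. The common biological coefficient of variation was 15.2%. Other steps used Python 3.11.15, pandas 2.3.3, NumPy 2.4.6, SciPy 1.17.1 and matplotlib 3.10.9. Ratios of TPM between quantifications used a pseudocount of 0.1.

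The members, gene lists and markers were chosen with earlier results of these data known. Named genes were all members, up to 4 leading genes of each list and any under a TPM of 1, and copies with a mean of at least 100 counts. Some genes within the rule are not printed, 1 result is not reported here, and the highest and lowest nuclear subunits of complexes III and IV were named beyond it, after their values were seen. With 2 libraries of 1 group no test across samples was run. Alternatives were the second quantification, other scalings, no filter, full gene length, genes of at least 200 bases, copies added, rRNA left out and each replicate left out.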

Additional observations from a re-analysis of the deposited data

How the results depend on the processing

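With copies added, the members' share of counts moved from 16.8% to 18.66%. The coding genes' share of TPM moved from 7.655% to 11.87%. For this share alone, each copy's own deposited TPM was added, not its counts per effective length of the member. With counts of copies added, the log2 ratio of mt-Co2 over mt-Co1 moved from -5.942 to -0.3878. That of mt-Nd6 over the median heavy-strand coding gene moved from -2.461 to -2.888. Leaving out rRNA gave a count share of 6.611%. By the second quantification the coding TPM share was 10.29% (8.13% over genes of at least 200 bases in the first), mt-Rnr2 over mt-Rnr1 was 1.089 (0.9567 per full length, against 0.892), mt-Co2 over mt-Co1 was -3.44 (-3.034 by posterior means), the light-strand share of member counts fell from 0.1733% to 0.09085%, and 1 member instead of 0 (mt-Nd3) differed over 2-fold between hearts. mt-Nd4l and mt-Atp8 had too few counts there to enter. The median between-heart log2 ratio of coding genes, 0.1591, was 0.193 with DESeq2 size factors, 0.2142 with spike-ins, 0.09348 with library totals, 0.1641 with no filter, 0.1557 by the second quantification and 0.1592 with copies added. Its sign was positive in each. The causes of these shifts were not tested, except that adding copies and leaving out rRNA change the sums by construction. The alternatives of copies added for the mt-Nd6 and between-heart ratios and of posterior means were chosen after seeing the data. Among single genes the between-heart log2 ratio changed sign for mt-Co2 (-0.18 to 0.18) and mt-Atp6 (-0.10 to 0.08) with copies added. By the second quantification it changed sign for mt-Co2 (to 0.07), mt-Atp6 (to 0.09) and mt-Nd3 (0.18 to -6.68). No paired analysis was possible because there is 1 group. The lowest expected count of the 15 detected members in a library was 5172, and the tRNA genes had no count to assess.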
